A study of Mus musculus with 56 samples.

Results

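The comparison described here is between PD1+ memory T_FGS that lacked CD73 (S+P C7, 5 samples) and PD1+ memory T_FGS that carried it (S+P C5, 6 samples). Subsets that share a replicate number were taken to be sorted from the same mouse. T_FGS are endogenous CD8+ T cells that bind OVA:Kb tetramers, and so recognise an antigen shared by the skin graft and the fetus. Both groups were C57BL/6 females, obtained as young adults, that had rejected a skin graft from 2W-OVA.BALB/c donors, which express 2W-OVA constitutively from a transgene, and had then delivered a semi-allogeneic litter sired by such males. Spleen and lymph nodes were taken within days of delivery, so graft, pregnancy and delivery are common to both groups and the PD1 gate as well. The subsets are polyclonal and differ by the CD73 gate of the sort. The members are 20 of the 56 libraries of the series, each amplified from 200 sorted cells, and they were chosen by their labels. Libraries of 1 replicate number and subset were summed, which gave 11 of 30 samples. Of these, S+P C5 replicate 2 was left unpaired and the others made 5 pairs, each called 1 mouse below.

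CD73, the product of *Nt5e*, is a surface enzyme that turns extracellular AMP into adenosine, and adenosine acts on T cells through receptors that restrain activation. Activated and memory CD8+ T cells span a range from stem-like cells, kept by TCF-1 (*Tcf7*) and marked by SLAMF6, to cytotoxic effector cells that carry granzymes, perforin and NK-type receptors such as KLRG1. PD1 is found along much of this range, on recently stimulated, stem-like and exhausted cells alike.

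Libraries held 11225602 to 32625243 counts in total (median 18949460). Mitochondrial genes took 1.74 to 4.77% of the counts in S+P C7 libraries and 1.92 to 6.51% in S+P C5 libraries, and were lower in S+P C7 in all 5 mice. Ribosomal protein genes took 3.76 to 9.41% and 4.91 to 10.5%, and were lower in S+P C7 in 4 of 5 mice. The part of these shares in the results below was not tested. The 2 libraries of a mouse and subset correlated at 0.802 to 0.888 over 8 such pairs. One S+P C7 library of replicate 1 and the sole library of replicate 2 correlated at 0.997, and were averaged as part of replicate 1. Levels are given as CPM, counts per 1000000 counts of the genes tested, scaled over the 11 samples by TMM. S+P C7 replicate 3, a single library, stood apart from the others. Only 7879 genes had a count in it, against 12382 to 25514 in the other 19 libraries. It held 8645 CPM of *Ighm*, the heavy chain of IgM, and 10548 CPM of *Hba-a1*, an alpha globin. The next highest values of the 11 samples were 269 CPM for *Ighm* and 98.3 CPM for *Hba-a1*. A list of 12 B cell markers summed to 25322 CPM there and to 127 to 761 CPM elsewhere, and a list of 8 erythroid markers summed to 21296 CPM there and to at most 218 CPM elsewhere. Genes of T cells were present in it, with 1409 CPM of *Cd8a*, whereas *Nt5e* had no count, which allows up to 3 counts, and *Pdcd1* had 1 count in 21997707. These limits cover counting error only, since PCR reads without molecular identifiers are not independent molecules. Most fold changes, and the counts and medians of gene lists, are therefore given with and without this pair below. Genes outside the naming rule that are named from the values without it were chosen after those values were seen. Libraries S+P C7 replicate 4 B and replicate 6 B held counts in 25514 and 18754 genes, more than any other, and leaving both out kept the number of called genes at 1.

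**Figure D1:**
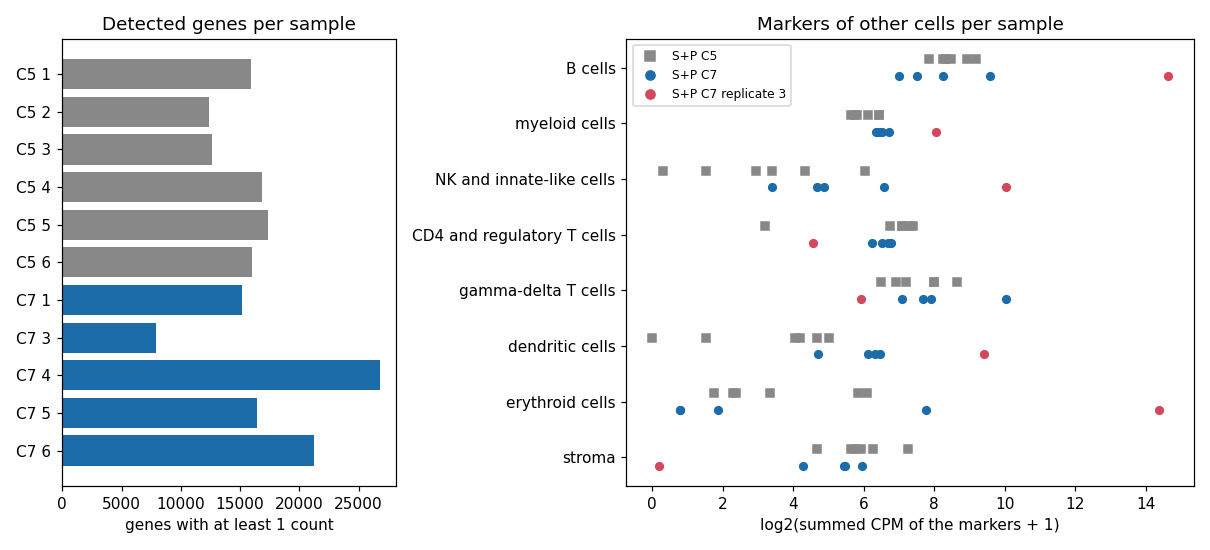
Left, genes with at least 1 count in each of the 11 samples, as bars. Right, the summed CPM of each list of markers of other cells, as log2(CPM + 1), with 1 point per sample. S+P C7 replicate 3 lies far above the other samples for B cell (25322 CPM) and erythroid (21296 CPM) markers and has the fewest detected genes (7879).

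The sort was visible in *Nt5e* (chromosome 9, 88209089 to 88254146, GRCm39, plus strand), which was lower in S+P C7 than in S+P C5 in all 5 mice. S+P C5 samples had 23.6 CPM at the lowest, 128 at the median and 178 at the highest. In S+P C7 the values were 56.1, 0, 24.3, 45.4 and 13.9 CPM in replicates 1, 3, 4, 5 and 6. The groups overlapped only through S+P C5 replicate 3, whose 23.6 CPM lay below 3 of the S+P C7 samples. The log2 fold change was -2.85 (SE 1.32, unadjusted p = 0.0739, adjusted p = 0.995) in the quasi-likelihood fit of edgeR, blocked by mouse. Without replicate 3 it was -2.06 (SE 0.438, unadjusted p = 0.00361, adjusted p = 0.378). The gate selected on this protein, so the difference is a check of the labels and not a finding. In sorted bulk samples, fewer cells of a type and less RNA per cell cannot be told apart, here and below. *Nt5e* reads were found in 8 of the 10 S+P C7 libraries. Between the 2 libraries of 1 mouse and subset, *Nt5e* differed by a median of 0.615 on the log2 scale over 8 such pairs, against 2.05 between the subsets.

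*Pdcd1* (PD-1), which both gates share, did not separate the subsets. Its lowest, median and highest values in S+P C5 were 95.5, 339 and 427 CPM. S+P C7 held 172, 0.049, 245, 488 and 601 CPM in replicates 1, 3, 4, 5 and 6, below the same mouse's S+P C5 in 3 pairs and above it in 2. Its log2 fold change without replicate 3 was -0.15 (SE 0.284), and -0.93 (SE 1.45, adjusted p = 0.995) with it. *Cd8a* stood at 1158 ± 163 CPM (SD, n = 5) in the CD73-negative and 1192 ± 283 CPM (SD, n = 6) in the CD73+ subset, with a log2 fold change of -0.06 (SE 0.235), and of -0.30 (SE 0.101, unadjusted p = 0.0257) without replicate 3. *Cd44*, the adhesion receptor that marks antigen-experienced T cells, had 199 ± 86.8 (SD, n = 5) and 299.9 ± 113 CPM (SD, n = 6). *Izumo1r*, which encodes the folate receptor FR4 found beside CD73 on anergic T cells, was lower in S+P C7 in all 5 pairs. Its S+P C7 values were 7.35, 18.5, 52.2, 138 and 23.4 CPM, and its S+P C5 values ran from 37.2 to 203 CPM around a median of 122 (log2 fold change -1.73, SE 0.587, unadjusted p = 0.0258, and -1.92 without replicate 3).

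Over the whole transcriptome, 12987 genes passed the filter on low counts and were tested. Of these 1 gene, *Ccl5*, passed both thresholds (adjusted p below 0.1, and a log2 fold change beyond 0.9 in either direction), a background of 0.0077% of genes tested. The count depended on the tool, since DESeq2 with the same block and thresholds called 207 genes (1.59%), 67 higher (0.516%) and 140 lower (1.08%). Of its higher calls 5 were cytotoxic genes (*Fasl*, *Prf1*, *Gzmb*, *Serpinb9* and *Gzmk*). Effector chemokines and their receptors held 5 (*Ccl5*, *Ccl4*, *Ccl9*, *Ccr2* and *Cxcr6*) and the NK receptor list 4 (*Klrg1*, *Klre1*, *Klra9* and *Tyrobp*). The list of inhibitory receptors and exhaustion factors held 3 (*Entpd1*, *Havcr2* and *Lair1*), and *Id2* and *Ifngr1* were also called higher. The lower calls of DESeq2 included 3 follicular helper-like genes (*Icos*, *Sostdc1* and *Cd200*), *Tcf7* and *Slamf6* of the stem-like list, *Tnfrsf25*, *Ada* and *Ifi44*. *Klra9*, *Tyrobp*, *Ada* and *Ifi44* were near 0 CPM in 1 subset and passed the filter largely through the other, so they support no direction. *Ccl9*, with a log2 fold change of 7.73 (SE 2.01) without replicate 3, has a fold of similar size and is taken to support no direction either. Calls and adjusted p-values below are those of edgeR. By an unadjusted p under 0.05, 158 genes (1.22%) were higher and 152 (1.17%) lower in S+P C7. With scaling by library size alone this split was 128 higher and 187 lower. Higher in S+P C7 in all 5 pairs were 385 genes (2.96%), and 823 (6.34%) were lower in all 5. Among the 3569 genes with a mean of at least 50 CPM, these counts were 258 and 273. The excess of lower genes thus lay among genes of low level. With replicate 3 left out, 13719 genes were tested, 535 (3.9%) were higher and 500 (3.64%) lower at an unadjusted p under 0.05, and 1151 (8.39%) and 1342 (9.78%) had 1 sign in the 4 remaining pairs. *Ccl5* was again the 1 gene called (0.00729%). The median log2 fold change of all genes tested was -0.32 with and -0.04 without replicate 3, and the medians of gene lists below are to be read beside these values. Counts by the sign of the fold change are to be read beside them too. Over all genes more had a negative than a positive fold change. An exact sign-flip test of 5 pairs cannot give a two-sided p below 0.0625, so single genes rest on the fit across all genes.

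**Figure D2:**
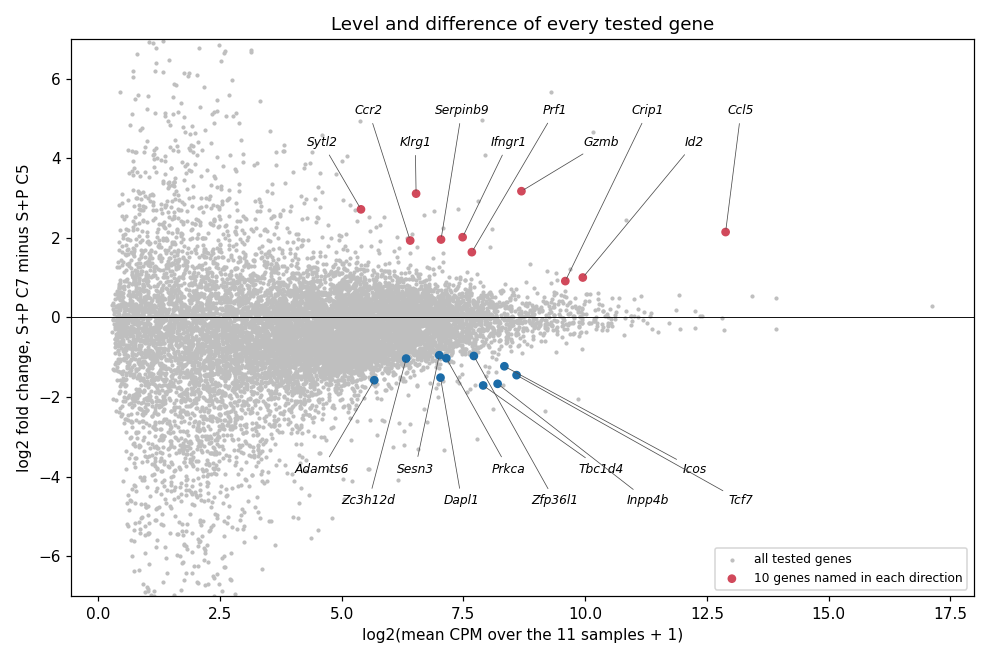
Each grey point is 1 of 12987 tested genes, with its mean level over the 11 samples on the x axis and its fitted log2 fold change (S+P C7 minus S+P C5) on the y axis; 75 genes lie beyond the drawn range of 7 in either direction. Coloured points are the 10 genes of smallest p in each direction that met the rule on level, size and sign, among which *Ccl5* has the highest mean level.

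*Ccl5* (chromosome 11, 83416602 to 83425942, GRCm39, minus strand) encodes the chemokine RANTES, which CD8+ memory and effector cells store and secrete to draw in other leukocytes. It was higher in S+P C7 in every mouse. S+P C5 had from 1111 to 7913 CPM, with a median of 3118. S+P C7 had 18723, 17369, 8402, 4840.1 and 11512 CPM in replicates 1, 3, 4, 5 and 6. The groups overlapped, since S+P C5 replicates 1 and 2, at 5138 and 7913 CPM, lay above S+P C7 replicate 5. Of the paired mice, replicate 5 was the lowest in both subsets and replicate 1 the highest in both. Within mice the log2 fold change was 2.14 (SE 0.116, adjusted p = 0.0203 by edgeR's quasi-likelihood test), and 2.18 (SE 0.128, adjusted p = 0.0483) without replicate 3. Without the replicate block the log2 fold change of Ccl5 was 1.71 with an adjusted p of 0.9998. Leaving out replicates 1, 4 or 5 gave log2 fold changes of 2.22, 2.15 and 2.18, with adjusted p of 0.112, 0.342 and 0.328, above the threshold of 0.1. Over 21 alternative settings the adjusted p ran from 6.4e-24 to 0.9998, and 13 of the 21 kept the call. The 2 libraries of 1 mouse and subset differed by a median of 0.245 on the log2 scale.

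Of 14 effector chemokines and their receptors, 12 were tested, 6 were higher and 0 lower at an unadjusted p under 0.05 (1.22% and 1.17% of all genes), and 5 were higher and 2 lower in all 5 pairs (2.96% and 6.34% of all genes). Their median log2 fold change was 1.37, and 1.76 over 13 genes without replicate 3, where 8 were higher and 2 lower at that p, beside 3.9% and 3.64% of all genes. The 2 lower genes there were *Xcl1* and *Cxcl10*. *Ccl9*, among the 8 higher there (log2 fold change 7.73, SE 2.01), is taken to support no direction, as said above. *Ccl4*, which encodes the chemokine MIP-1 beta, had 1087, 1766, 963, 451 and 420.4 CPM in S+P C7, each above the S+P C5 sample of its mouse (log2 fold change 1.13, SE 0.229, unadjusted p = 0.00263, and 1.14 without replicate 3). *Cxcr6*, the receptor for CXCL16 on tissue-positioned memory cells, had 442 ± 207 CPM (SD, n = 5) without CD73 and 125 ± 87.3 CPM (SD, n = 6) with it. *Ccr2*, a receptor for inflammatory monocyte chemokines, had 376, 1.42, 201, 32.1 and 96.5 CPM in S+P C7 and between 0.757 and 92.4 CPM in S+P C5. In replicate 3 both subsets were almost without *Ccr2*, so that pair adds nothing to its direction. None of these 3 genes passed the adjusted threshold in this fit (adjusted p = 0.995 for each), and the 3 adjusted p-values without replicate 3 were 0.399, 0.188 and 0.156.

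Cytotoxic granule genes were more often higher in S+P C7, whereas the 3 effector cytokines tested with them were not. Of 19 listed genes 16 were tested, 9 with a positive and 7 with a negative log2 fold change, 7 were higher and 0 lower at an unadjusted p under 0.05, beside 1.22% and 1.17% of all genes, and 7 were higher and 2 lower in all 5 pairs, beside 2.96% and 6.34% of all genes. The 2 lower in all 5 pairs were the cytokines *Tnf* (log2 fold change -3.01, SE 2.15) and *Lta* (-2.29, SE 1.29), neither with an unadjusted p under 0.05, and *Ifng*, which encodes interferon-gamma, had -0.13 (SE 0.279). Without replicate 3 again 7 were higher and 0 lower at that p, beside 3.9% and 3.64% of all genes, and *Tnf*, *Lta* and *Ifng* had -1.73, -1.59 and -0.16. The median log2 fold change was 0.65 (0.53 without replicate 3), and the 5 mice gave medians between 0.5038 and 0.8014. *Gzmb* (chromosome 14, 56496295 to 56499717, GRCm39, minus strand) encodes granzyme B, the protease that triggers apoptosis in target cells, and *Prf1* (chromosome 10, 61133546 to 61140461, GRCm39, plus strand) encodes perforin, the pore through which granzymes enter. In S+P C7 *Gzmb* had 1673, 222, 916, 427 and 480.1 CPM in replicates 1, 3, 4, 5 and 6. Its S+P C5 values ran from 23.2 to 523 CPM with a median of 64.2, and the highest of them, in replicate 1, was the only one above 119 CPM. The log2 fold change of *Gzmb* was 3.17 (SE 0.367, adjusted p = 0.851), and 3.15 (SE 0.406, adjusted p = 0.188) without replicate 3. For *Prf1* the S+P C7 values were 683, 209, 315, 199 and 249 CPM and those of S+P C5 45.2 at the lowest, 87.7 at the median and 201 at the highest. *Prf1* overlapped between the groups by the 201 CPM of S+P C5 replicate 1, just above the 199 CPM of S+P C7 replicate 5 (log2 fold change 1.64, SE 0.231, adjusted p = 0.989, and 1.503 without replicate 3). *Serpinb9*, the inhibitor with which cytotoxic cells protect themselves from granzyme B, did not overlap between the groups. It had 147 to 296 CPM in S+P C7 and 27.6 to 90.0 CPM in S+P C5 (log2 fold change 1.96, SE 0.289, adjusted p = 0.989, and 1.74 without replicate 3). Of the 12987 genes tested, 19 were higher and 61 lower with no overlap between the groups. *Nkg7*, a granule membrane protein and the most abundant gene of the list, had 4576 ± 739 CPM (SD, n = 5) against 3322 ± 696 (SD, n = 6) and was higher in all 5 pairs (log2 fold change 0.57, SE 0.101, and 0.60 without replicate 3). *Sytl2*, which tethers secretory granules at the membrane, had 28.1 to 122 CPM in S+P C7 and 4.54 to 40.4 CPM in S+P C5.

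The promoters of *Gzmb* and *Prf1* are shown because both genes were higher in S+P C7 in all 5 pairs and encode proteins of 1 pathway. They span 250 bases before to 50 bases after the gene start in RefSeq's table (GRCm38.p6), read 5′ to 3′ on the gene's strand. Capitals mark the letters TGTGGT, the core that Runx factors bind, and CAGGTG, an E-box, on either strand, and the motifs share no letters.
*Gzmb*, chr14:56262285-56262584, minus strand: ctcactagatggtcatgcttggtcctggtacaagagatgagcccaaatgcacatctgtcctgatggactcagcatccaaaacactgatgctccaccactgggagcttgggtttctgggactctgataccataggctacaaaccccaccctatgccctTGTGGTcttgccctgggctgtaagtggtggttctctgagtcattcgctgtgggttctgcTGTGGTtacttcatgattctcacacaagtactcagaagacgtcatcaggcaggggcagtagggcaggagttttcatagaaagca
*Prf1*, chr10:61297586-61297885, plus strand: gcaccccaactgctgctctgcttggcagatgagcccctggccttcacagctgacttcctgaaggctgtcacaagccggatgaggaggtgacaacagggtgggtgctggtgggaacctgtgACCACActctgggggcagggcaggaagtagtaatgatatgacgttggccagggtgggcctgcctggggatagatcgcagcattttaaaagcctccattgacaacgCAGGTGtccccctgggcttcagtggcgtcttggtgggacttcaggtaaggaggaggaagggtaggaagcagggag
The *Gzmb* window held the Runx letters 2 times and no E-box, and the *Prf1* window held each 1 time. Of 32851 RefSeq promoters of this length, 16.8% held the Runx letters and 20.2% the E-box. Of the 10 genes of smallest p that were higher in S+P C7, 7 matched a promoter entry, 3 with the Runx letters and 1 with the E-box. Of the 10 that were lower, 8 matched, 1 with each. *Ccl5*, *Klrg1*, *Sytl2*, *Icos* and *Adamts6* were not matched. The motifs were picked after these sequences had been read, and a match is a run of letters, not a shown binding site.

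NK receptors, which T cells gain late in effector differentiation, had 18 of 26 listed genes tested. At an unadjusted p under 0.05, 4 were higher and 0 lower, beside 1.22% and 1.17% of all genes, and 5 were higher and 1 lower in all 5 pairs, beside 2.96% and 6.34%, with a median log2 fold change of 1.41. Leaving out replicate 3 gave 8 higher and 1 lower at that p, beside 3.9% and 3.64% of all genes, and a median of 0.83. The 1 lower gene was *Cd160* (log2 fold change -0.39, SE 0.129, and -1.13, SE 1.28, with replicate 3). *Klrg1* (chromosome 6, 122246981 to 122259914, GRCm39), an inhibitory receptor for cadherins and the usual marker of terminal effector cells, had 574, 120.2, 40.3 and 64.3 CPM in S+P C7 replicates 1, 4, 5 and 6. The S+P C5 samples of those mice had 129.7, 17.3, 2.33 and 6.36 CPM, and in replicate 3 S+P C5 held no count and S+P C7 held 1 count (0.049 CPM). The log2 fold change of *Klrg1* was 3.11 (SE 0.440, adjusted p = 0.989) and 3.08 (SE 0.346, adjusted p = 0.179) without replicate 3. *Klre1*, a lectin-like receptor of NK cells, had 449, 304, 115, 53.0 and 73.6 CPM in S+P C7, and 2.44 to 123 CPM in S+P C5. *Klra9*, of the Ly49 family, reached 92.0 CPM in S+P C7 replicate 3 and at most 11.1 CPM in any other sample. *Tyrobp*, the DAP12 signalling adaptor of NK and myeloid cells, had 506 CPM in that same library and at most 11.7 CPM elsewhere. In S+P C5 the medians of *Klra9* and *Tyrobp* were 0 and 0.229 CPM. Both passed the filter largely through S+P C7, so their places in the counts of this list support no direction. The 9 markers listed for NK and innate-like cells summed to 1053 CPM in S+P C7 replicate 3, 9.56 to 94.5 CPM in the other S+P C7 samples and 0.239 to 64.3 CPM in S+P C5, and the sum was higher in S+P C7 in all 5 pairs, with 9.56 against 9.47 CPM in replicate 6. Their part in the values of the NK receptor and cytotoxic lists was not tested, and *Klre1* had a log2 fold change of 2.66 (SE 0.798) with replicate 3 and 2.06 (SE 0.597) without it. Reads that map to more than 1 place had been removed, so counts of the Ly49 family, *Ly6c2*, *Hba-a1* and *Trgc2*, which have close copies, hold the unique reads alone and are uncertain.

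Id proteins bind E proteins and keep them from DNA, and *Id2* (chromosome 12, 25143798 to 25147282, GRCm39) accompanies effector differentiation. S+P C7 held 1888, 2421, 790.4, 735 and 904 CPM of *Id2* and S+P C5 435 at the lowest, 625.4 at the median and 1101 at the highest. It was higher in S+P C7 in every pair although the groups overlapped (log2 fold change 1.00, SE 0.194, unadjusted p = 0.00205, and 0.87 without replicate 3). Among 5 tested Id and E protein genes, *Id2* was the 1 with a positive fold change, and the median of the list was -0.65. Without replicate 3, 2 of these 5 were positive and the median was -0.57. Of 15 effector transcription factors, 1 was higher and 0 lower at an unadjusted p under 0.05 (1.22% and 1.17% of all genes), with a median of -0.07. With that pair left out 3 were higher (*Id2*, *Runx3* and *Prdm1*) and 1 lower (*Irf4*), beside 3.9% and 3.64% of all genes, and the median was 0.13. Cytokine receptors had members in both directions. *Ifngr1*, the ligand-binding chain of the interferon-gamma receptor, had 492, 428, 282, 81.1 and 162 CPM in S+P C7 and a median of 56.6 CPM in S+P C5 (log2 fold change 2.02, SE 0.330, and 1.75 without replicate 3). *Il7r*, the receptor for the survival cytokine IL-7, was lower without overlap, at 21.4 to 138 CPM against 191 to 323 CPM (log2 fold change -1.42, SE 0.441, and -0.98 without replicate 3). Of 19 such receptors tested, 1 was higher and 1 lower at an unadjusted p under 0.05 (1.22% and 1.17% of all genes), with a median of -0.09. Of 20 tested without replicate 3, 3 were higher and 3 lower (3.9% and 3.64% of all genes), with a median of 0.25. *Crip1*, a small LIM-domain protein, completed the genes of smallest p on the higher side, with 977 ± 440.2 CPM (SD, n = 5) against 599 ± 353 (SD, n = 6) in S+P C5.

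**Figure D3:**
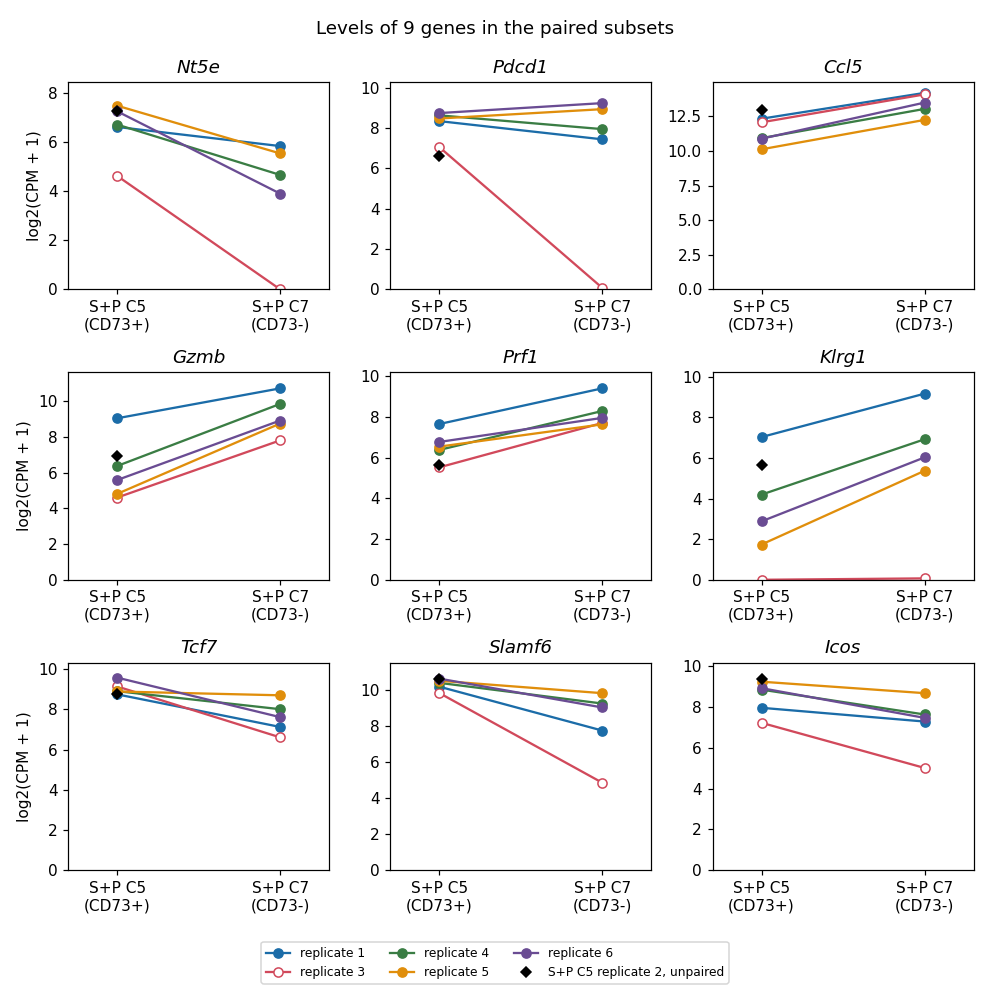
Levels of 9 genes as log2(CPM + 1), with a line for each mouse from its S+P C5 to its S+P C7 sample, open symbols for replicate 3 and a diamond for the unpaired S+P C5 replicate 2. *Ccl5*, *Gzmb* and *Prf1* were higher in S+P C7 and *Nt5e*, *Tcf7*, *Slamf6* and *Icos* lower in all 5 pairs, *Klrg1* was near 0 in replicate 3 of both subsets, and *Pdcd1* was lower in 3 pairs and higher in 2.

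Genes of stem-like memory cells were more often lower in S+P C7, though not all of them. All 16 listed genes were tested, 1 was higher and 4 lower at an unadjusted p under 0.05, beside 1.22% and 1.17% of all genes, and 1 was higher and 6 lower in all 5 pairs, beside a background of 2.96% and 6.34%. The median was -0.86, and -0.57 without replicate 3, where 1 was higher and 7 lower at that p, beside 3.9% and 3.64%. Higher in S+P C7 were *Klf3* (log2 fold change 0.64, SE 0.221, unadjusted p = 0.0268, higher in 4 of 5 pairs), a Kruppel-like transcription factor, and in all 5 pairs *Lef1*, the partner of TCF-1, though not by that p (0.67, SE 0.343, unadjusted p = 0.0965). Their values without replicate 3 were 0.81 and 0.41. *Tcf7* (chromosome 11, 52143107 to 52174619, GRCm39) had 138, 96.3, 256, 414 and 194 CPM in S+P C7 replicates 1, 3, 4, 5 and 6. S+P C5 had 428 CPM at the lowest, 475 at the median and 762 at the highest, so the groups did not overlap, although the 414 CPM of S+P C7 replicate 5 came close. Its log2 fold change was -1.45 (SE 0.369, adjusted p = 0.995) and without replicate 3 -1.17 (SE 0.305, adjusted p = 0.454). *Slamf6*, a homophilic receptor of the SLAM family, had 895 to 1559 CPM in S+P C5, with a median of 1379.6. In S+P C7 it had 211, 27.6, 598, 891 and 514 CPM (log2 fold change -2.06, SE 0.667, and -1.46, SE 0.285, without replicate 3), and replicate 5 was again nearest to S+P C5. *Cd69*, an early activation and retention receptor, was lower by a log2 fold change of -0.49 (SE 0.131, and -0.40 without replicate 3). Near these lay *Tbc1d4*, which controls glucose transporter traffic, at 60.4, 89.6, 87.4, 264 and 88.5 CPM in S+P C7 and 200.3 to 438 CPM in S+P C5 (log2 fold change -1.71, SE 0.277, unadjusted p = 0.000816, and -1.56 without replicate 3). *Zfp36l1*, an RNA-binding protein that destabilises AU-rich transcripts, had 134 ± 41.3 CPM (SD, n = 5) against 271 ± 65.9 (SD, n = 6) without overlap. Also among the 10 lower genes of smallest p were *Dapl1*, *Inpp4b* (a phosphoinositide phosphatase), *Sesn3* (a sestrin) and *Prkca* (protein kinase C alpha). *Adamts6* (a secreted metalloprotease), *Zc3h12d* (a CCCH zinc finger protein) and *Icos*, described below, made up the rest. Log2 fold changes of these genes ran from -1.67 for *Inpp4b* to -0.95 for *Sesn3*, and without replicate 3 from -1.58 for *Dapl1* to -0.83 for *Prkca*. Exons of *Id2*, *Tcf7*, *Slamf6*, *Sesn3*, *Prkca*, *S1pr1*, *Ada*, *Lair1*, *Tgfbr2*, *Hif1a*, *Tnfrsf18*, *Ifng*, *Lef1*, *Klf3*, *Cd160*, *Il6ra*, *Nrp1*, *Dgkz*, *Tgfbr3*, *Orai1*, *Itpr1* and *Ptpn6* overlap exons of another annotated gene, and Smart-seq2 libraries do not mark strand, so their reads and those of the neighbour cannot be told apart where they overlap.

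Follicular helper-like genes, named for the T cells that assist B cells in follicles, were all on the lower side. Of 19 listed genes 15 were tested, and each had a negative log2 fold change, of which 3 had an unadjusted p under 0.05 and 7 were lower in all 5 pairs, beside 1.17% and 6.34% of all genes. The median was -2.93, or -2.11 without replicate 3, where 4 of 15 were lower at that p and 10 in all 4 pairs, beside 3.64% and 9.78% of all genes. Without that pair *Cd40lg* (-4.68, SE 2.53), *Pou2af1* (-3.22, SE 2.02), *Il21* (-3.09, SE 1.73) and *Tnfrsf4* (-2.83, SE 1.52) had wide errors. Genes of low level in S+P C7 can pass the filter through S+P C5. The count by sign and the medians of this list therefore support no direction for such genes. *Icos*, a costimulatory receptor of the CD28 family, had 155, 31.2, 197, 407 and 175 CPM in S+P C7 and a median of 471 CPM in S+P C5, from 148 to 654 (log2 fold change -1.23, SE 0.280, and -0.97 without replicate 3). *Sostdc1*, a secreted antagonist of BMP and Wnt signals, had 3.79, 0, 4.39, 107 and 15.4 CPM in S+P C7. In S+P C5 it varied widely between mice, from 10.1 to 229 CPM, and each mouse was lower in S+P C7. *Cd200*, the ligand of an inhibitory receptor on myeloid cells, had 12.97, 0.834, 103, 293 and 74.8 CPM in S+P C7 and 179.8 to 514 CPM in S+P C5. Of 5 tested B cell markers, 2 were lower at an unadjusted p under 0.05 without replicate 3, beside 3.64% of all genes. They were *Ighm* (log2 fold change -1.13, SE 0.237, unadjusted p = 0.00343) and *Cd74* (-3.53, SE 1.40, unadjusted p = 0.0467). Both were lower in all 4 pairs, beside 9.78% of all genes, and the median of the 5 markers was -1.13. Over all 5 pairs *Ighm* had -0.40 (SE 1.11) and *Cd74* -2.36 (SE 2.45), and the summed B cell markers were lower in replicates 1, 4 and 5 and higher in 3 and 6. Their part in the follicular helper-like values was not tested. S+P C7 replicate 5 had the highest values of *Icos*, *Sostdc1* and *Cd200* in its group, as it did of *Tcf7*, *Slamf6* and *Tbc1d4*. The costimulation and TNF receptor list had 24 of 25 genes tested, of which 0 were higher and 10 lower in all 5 pairs and 4 lower at an unadjusted p under 0.05 (median -0.91), beside 6.34% and 1.17% of all genes on the lower side. Leaving out replicate 3 gave 1 higher, *Cd48*, and 7 lower at that p (median -0.52), beside 3.9% and 3.64%. *Cd28* itself had 469 ± 193 CPM (SD, n = 5) against 851 ± 234 (SD, n = 6), and *Ly9*, another SLAM receptor, 61.8 ± 18.5 against 130.1 ± 40.3 CPM, lower in 4 of 5 pairs. *Tnfrsf18* (GITR) differed by a log2 fold change of -0.64 (SE 0.282, and -0.52 without replicate 3) and was lower in all 5 pairs.

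The list of inhibitory receptors and exhaustion factors did not move as a block, though most of its members had a negative log2 fold change. With replicate 3 and without it, 5 of the 24 were positive and 19 negative. Beside receptors it holds ligands such as *Cd274*, transcription factors such as *Tox* and *Nfatc1*, and the enzyme gene *Entpd1*. Of 24 genes tested, 3 were higher and 0 lower at an unadjusted p under 0.05 (1.22% and 1.17% of all genes), while 3 were higher and 8 lower in all 5 pairs (2.96% and 6.34%), with a median of -0.92. Without replicate 3 the counts were 4 higher and 7 lower at that p, beside 3.9% and 3.64% of all genes, and 4 higher and 9 lower in all 4 pairs, beside 8.39% and 9.78%, with a median of -0.55. Lower there were *Lag3* (log2 fold change -0.95, SE 0.175) and *Btla* (-1.55, SE 0.347), both inhibitory receptors, with *Pdcd1lg2*, *Cd160*, *Nfatc1*, *Nfat5* and *Nr4a3*, and over all 5 pairs *Lag3* and *Btla* had -1.69 (SE 1.31) and -2.31 (SE 1.09). The 3 genes higher by unadjusted p over the 5 pairs were *Entpd1*, *Havcr2* and *Lair1*, and the 3 higher in every pair were *Entpd1*, *Havcr2* and *Cd244a*. *Entpd1* encodes CD39, the enzyme that makes the AMP on which CD73 acts, and is a marker of exhausted cells. It had 114, 62.2, 91.4, 67.4 and 212 CPM in S+P C7 and 7.03 at the lowest, 38.5 at the median and 74.2 at the highest in S+P C5 (log2 fold change 1.74, SE 0.479, unadjusted p = 0.0109, and 1.40 without replicate 3). Within each mouse, then, the CD73-negative subset held more *Entpd1* and less *Nt5e* RNA. *Havcr2* (TIM-3) had 135, 31.6, 86.1, 72.3 and 73.8 CPM in S+P C7 and 0.919 to 60.3 CPM in S+P C5, with a log2 fold change of 2.27 (SE 0.831), and 1.67 (SE 0.476) without replicate 3. *Lair1*, a collagen-binding inhibitory receptor, was at 63.3 CPM or less in every sample and at 0 in both subsets of replicate 3. Adenosine is removed by a kinase and a deaminase, and *Adk*, the kinase, was lower in all 5 pairs, at 73.3, 5.49, 95.1, 129 and 45.6 CPM against 96.0 to 222 CPM. *Ada*, the deaminase, had at most 18.3 CPM in any sample and was at 0 in 4 of 5 S+P C7 samples. It passed the filter largely through S+P C5, so its place in the counts that follow supports no direction. Of 11 tested genes of the CD73 and adenosine list, 1 was higher and 2 lower at an unadjusted p under 0.05, beside 1.22% and 1.17% of all genes, with a median of -0.93 (1 higher, 3 lower and -0.22 without replicate 3, beside 3.9% and 3.64%). The 14 anergy genes, which overlap this list in *Nt5e*, had 1 lower and 0 higher by that measure, *Izumo1r*, and a median of -1.32. Without replicate 3, 5 of the 14 were lower and 0 higher at that p, *Lag3*, *Nt5e*, *Nrp1*, *Izumo1r* and *Dgkz*, 6 were lower in all 4 pairs, and the median was -0.72, beside 3.64% of all genes lower at that p and 9.78% lower in all 4 pairs. Since the gate for CD73 is part of how anergic cells are recognised, *Nt5e* is no independent member of that list. The same gate makes *Nt5e* no independent member of the 3 lower genes of the CD73 and adenosine list without replicate 3.

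Homing and adhesion genes were mixed. *S1pr1*, the receptor with which T cells leave lymphoid tissue, had 760.0, 497, 238, 222 and 359 CPM in S+P C7, above S+P C5 in all 5 mice (log2 fold change 0.84, SE 0.144, unadjusted p = 0.000962, and 0.79 without replicate 3). *S1pr4* had 177 ± 183 CPM (SD, n = 5) against 71.5 ± 66.3 (SD, n = 6), higher in 4 pairs, and the lymph node homing list of 10 genes had 2 higher and 0 lower at an unadjusted p under 0.05 (1.22% and 1.17% of all genes), with a median of -0.80. Leaving out replicate 3 gave 2 higher and 3 lower at that p (3.9% and 3.64% of all genes) and a median of -0.59. Among the lower genes were *Ccr7* (log2 fold change -1.74, SE 0.279, unadjusted p = 9e-04), a chemokine receptor with which T cells enter lymph nodes, and *Il6ra* (-1.10, SE 0.323), a chain of the IL-6 receptor. Over all 5 pairs *Ccr7* had -1.09 (SE 0.847) and *Il6ra* -1.86 (SE 1.54). Of the 24 integrin, S100 and annexin genes, 5 were higher and 1 lower by that measure, beside 1.22% and 1.17%, 19 had a positive fold change, and the median was 0.46. Without replicate 3, 14 of these 24 were higher and 1 lower at that p, beside 3.9% and 3.64% of all genes, 15 were higher in all 4 pairs, beside 8.39% of all genes, 1 was lower, and the median was 0.62. *Itgb2*, the shared beta chain of the leukocyte integrins, had 887 ± 231 against 585 ± 191 CPM, and *Ahnak*, a scaffold protein of the cell membrane, 618 ± 271 against 427 ± 121 CPM (SD, n = 5 and n = 6). *Itgb1*, the beta chain of the VLA integrins, went the other way, with 579 ± 159.9 against 946 ± 237 CPM, lower in all 5 pairs. *Ly6c2*, the memory marker Ly6C, which has a close copy, had 2613 CPM in S+P C7 replicate 1 and 183 to 659 CPM in the others.

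Proliferation genes did not have 1 direction across mice. All 27 cell cycle genes were tested, 23 with a positive fold change, while the median of all genes tested was -0.32. At an unadjusted p under 0.05, 1 was higher and 0 lower, beside 1.22% and 1.17% of all genes. None had 1 sign in all 5 pairs, beside 2.96% higher and 6.34% lower of all genes. Without replicate 3 none had such a p, beside 3.9% and 3.64% of all genes. In all 4 pairs 1 was higher and 0 lower, beside 8.39% and 9.78% of all genes. The fitted median was 0.74 with and 0.77 without replicate 3. The median pair difference of the list was -2.28 in replicate 1 and 1.42, 1.41, 0.13 and 1.79 in replicates 3, 4, 5 and 6. *Hmgb2*, a chromatin protein of cycling cells, had 419 CPM in S+P C7 replicate 1, below the 609 CPM of its S+P C5 sample, and was higher in the other 4 pairs. Of 32 interferon-stimulated genes, 0 were higher and 1 lower at an unadjusted p under 0.05 (1.22% and 1.17% of all genes), none had 1 sign in all 5 pairs, and the median was -0.39. That gene, *Ifi44*, had at most 8 CPM in any sample and a median of 0 CPM in S+P C7. It passed the filter through S+P C5, so its place in the counts of this list, with or without replicate 3, supports no direction. With replicate 3 left out, 1 of the 32 was higher (*Ifi206*) and 4 were lower (*Ifi44*, *Gbp2*, *Irgm1* and *Ifi27l2a*), beside 3.9% and 3.64% of all genes, and the median was -0.16. Among 28 genes of proximal TCR signalling and calcium, 3 were higher and 0 lower by that measure (1.22% and 1.17% of all genes), and 5 were higher and 5 lower in all 5 pairs (2.96% and 6.34%), with a median of -0.36. Without replicate 3 these counts were 5 higher and 4 lower (3.9% and 3.64%), and 5 and 5 in all 4 pairs (8.39% and 9.78%), and the median changed sign to 0.10. The 4 lower genes were *Orai1*, the pore of the store-operated calcium channel, *Itpr1* and *Itpr2*, which release calcium from the endoplasmic reticulum, and the phosphatase *Ptpn6*. *Ppp3ca*, the catalytic subunit of calcineurin, had 83.1 ± 58.2 CPM (SD, n = 5) against 27.3 ± 10.9 CPM (SD, n = 6), with its highest value, 180.2 CPM, in replicate 3. *Txk*, a Tec family kinase, had a log2 fold change of 0.57 (SE 0.234, and 0.60 without replicate 3). Immediate early genes had 2 of 20 higher, *Klf6* (0.62, SE 0.170) and *Ier2* (0.58, SE 0.207), both of them transcription regulators, and 0 lower, beside 1.22% and 1.17%. Without replicate 3 these 2 had 0.46 and 0.58, *Dusp5* was also higher, and *Jun* was lower, so that 3 were higher and 1 lower beside 3.9% and 3.64%. The median of the list was -0.19 with and -0.16 without that pair. In the glycolysis list 1 of 17 genes was lower and 0 higher (1.17% and 1.22% of all genes), *Hif1a*, the oxygen-regulated transcription factor, with 145 ± 98.9 against 335 ± 96.0 CPM. *Hif1a* had a log2 fold change of -1.47 (SE 0.553), and of -0.94 (SE 0.122) without replicate 3, where *Slc2a3*, a glucose transporter, and *Pfkp* were higher, 2 higher and 1 lower beside 3.9% and 3.64%. The median of that list was -0.31 with and -0.04 without replicate 3. Neither the 19 survival and death genes, of which *Casp8* was the most abundant, nor the 16 genes of TGF-beta and BMP signalling, led by *Tgfbr2*, held a gene with an unadjusted p under 0.05 over the 5 pairs. Without replicate 3, 1 of the 19 survival and death genes was higher and 1 lower at that p. Of 17 tested genes of TGF-beta and BMP signalling, 2 were higher and 1 lower. Beside these counts stood 3.9% higher and 3.64% lower of all genes. The medians of the 2 lists were then 0.14 and -0.65, against 0.01 and -1.26 with replicate 3. *Pmaip1*, a BH3-only death protein, was higher (log2 fold change 1.26, SE 0.366) and the kinase *Pim2* lower (-0.84, SE 0.188), and among 17 genes of TGF-beta and BMP signalling *Smad3* and *Tgfbr2* were higher (*Tgfbr2* by 0.33, SE 0.128) and *Tgfbr3* lower (-1.79, SE 0.357). The 18 sort and identity genes had a median of -0.19 and 2 lower genes by that measure (1.17% of all genes), *Izumo1r* and *Cd28*, and without replicate 3 a median of -0.16, 4 lower genes (these 2, *Nt5e* and *Cd8a*) and 1 higher, *Cd2*, beside 3.64% and 3.9%.

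**Figure D4:**
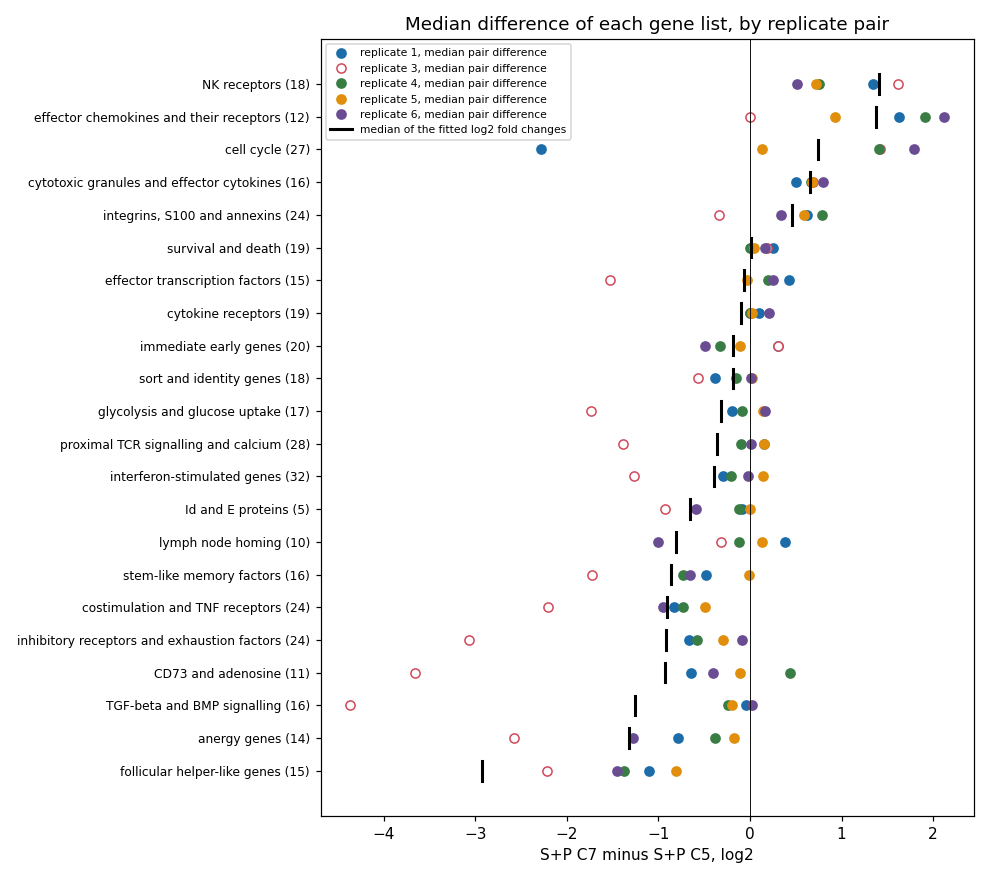
Each row is a gene list with its number of tested genes. Points are the median log2 difference of its members within each mouse (S+P C7 minus S+P C5, log2(CPM + 1)), open for replicate 3, and the black bar is the median of the fitted log2 fold changes. Medians of the cytotoxic granule and effector cytokine list lie between 0.5038 and 0.8014 in all 5 mice. Those of the follicular helper-like list lie below 0 in all 5, and those of the cell cycle list span both sides of 0.

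Beside the other sorted groups of the series, placed on 1 scale over 30 samples, S+P C7 had the lowest median of *Nt5e*, 23.2 CPM, whereas Naive had 51.7 CPM, Sensitized 92.9 CPM, and the other pregnancy groups 66.5 (N+P C1), 161 (N+P C5), 65.7 (S+P C4) and 121 CPM (S+P C5). Its range of 0 to 54.3 CPM overlapped that of Naive, N+P C1, S+P C4 and S+P C5. *Ccl5* had medians of 126 CPM in Naive cells and, after pregnancy without a graft, 549 (N+P C1) and 522 CPM (N+P C5), where no sample exceeded 1073 CPM. The medians of memory groups were 7034 (Sensitized), 14278 (S+P C4), 2893 (S+P C5) and 11069 CPM (S+P C7), and all 4 ranges overlapped. *Gzmb* had a median of 823 (S+P C4), 462 (S+P C7), 75.9 (Sensitized) and 61.2 CPM (S+P C5), and *Klrg1* had 183, 61.8, 87.8 and 11.3 CPM in the same order. Among these 4 memory groups the median of *Slamf6* was highest in S+P C5, with 1321 CPM, and then 494 (S+P C7), 269.6 (S+P C4) and 264 CPM (Sensitized), while N+P C5 had 832, Naive 302 and N+P C1 298 CPM. S+P C7 thus lay between S+P C5 and S+P C4 in the medians of *Ccl5*, *Gzmb*, *Klrg1* and *Slamf6*, but below both in *Tcf7*, with 187 CPM against 455 and 279. *Tbc1d4* had 334 (S+P C5), 85.1 (S+P C7), 48.0 (S+P C4) and 11.8 CPM (Sensitized). These levels are a description, and the differences from groups other than S+P C5 were not tested.

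**Figure D5:**
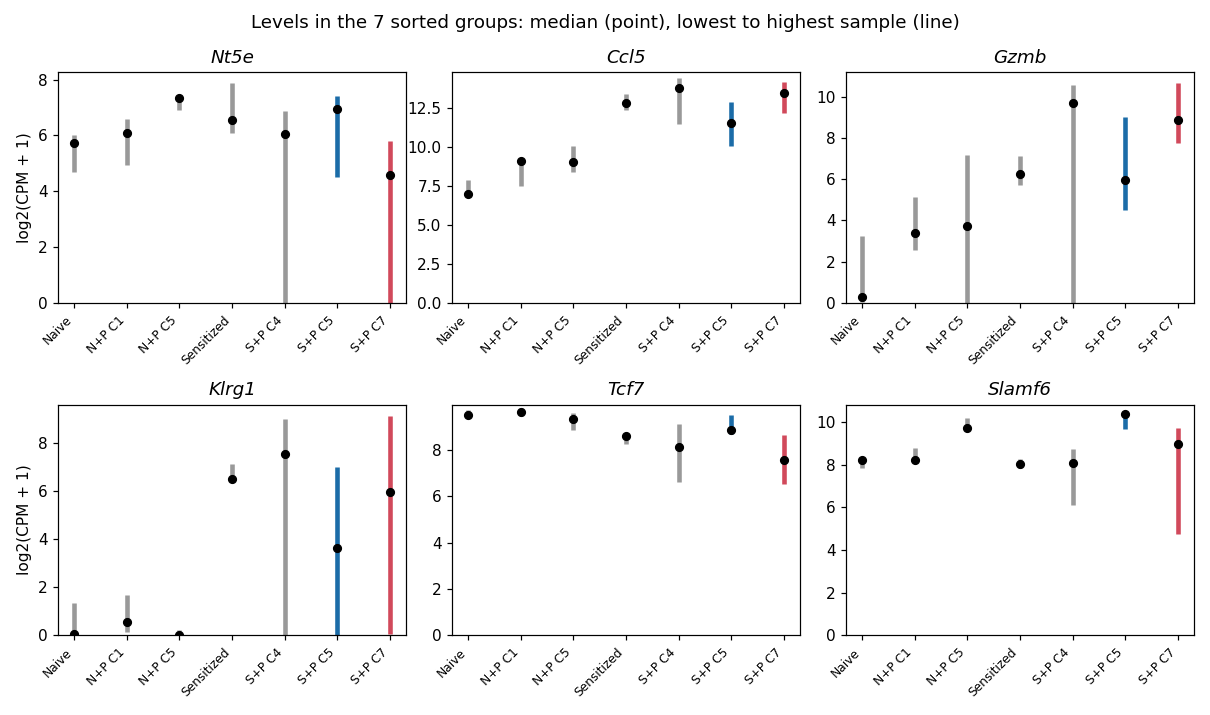
Levels of 6 genes in the 7 sorted groups as log2(CPM + 1), with the median as a point and the lowest to highest sample as a line, S+P C5 in blue and S+P C7 in red. S+P C7 lies between S+P C5 and S+P C4 in the medians of *Ccl5*, *Gzmb*, *Klrg1* and *Slamf6*, and has the lowest median of *Nt5e*, 23.2 CPM.

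Markers of other cells differed between the subsets for several cell types. Outside S+P C7 replicate 3, 12 myeloid markers, of which *Cd14* had no count in any sample, summed to 49.1 to 104 CPM, with *Cd68* the most abundant at 28.9 to 85.5 CPM, and 7 dendritic cell markers to at most 88.1 CPM. The dendritic cell sum was higher in S+P C7 in all 5 pairs, at 88.1, 675, 68.8, 25.0 and 78.4 CPM against 31.6, 1.89, 24.4, 17.3 and 15.7 CPM in replicates 1, 3, 4, 5 and 6. *Itgax*, a marker of that list which is also in the integrin list, had a log2 fold change of 2.07 (SE 0.840), and of 1.53 (SE 0.457, unadjusted p = 0.0164) without replicate 3. The myeloid sum was higher in 4 pairs and lower in replicate 4. In replicate 3 of S+P C7 the myeloid and dendritic cell sums reached 264 and 675 CPM, with 366 CPM of the chemokine receptor *Xcr1* and no count of *Cd68*. The 6 markers of CD4 and regulatory T cells summed to 8.11 to 167 CPM with CD73 and 22.5 to 109 CPM without it, most of it *Tnfrsf18* except in replicate 3, where that gene had at most 2.32 CPM, and the sum was lower in S+P C7 in the 4 other pairs. Of 8 gamma-delta T cell markers, 7 were in the table and summed to 1049.6 CPM in S+P C7 replicate 6, 778 CPM of it *Trgc2*, and to 59.4 to 403 CPM in the other samples. The sum was higher in S+P C7 in the 4 pairs other than replicate 3. *Trgc2* itself, higher in the same 4 pairs, had a log2 fold change of 1.01 (SE 0.425, unadjusted p = 0.0549), and without replicate 3 of 1.43 (SE 0.170, unadjusted p = 0.000186). The part of these other cell types in the results above was not tested. The 7 stromal markers, led by *Pecam1*, an endothelial adhesion molecule also found on naive T cells, summed to at most 154 CPM and were lower in S+P C7 in all 5 pairs.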

How the data were processed

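Smart-seq2 libraries were amplified from 200 sorted cells each. The authors deposited raw counts per gene in a single table of whole reads. The submitters' processing notes name cutadapt 3.4, STAR 2.6.1b and featureCounts 2.0.1, with reads aligned to GRCm39; the annotation release was not given in the sources used here. Amplified reads without molecular identifiers overstate the precision of a count, and 1 gene, *Rn18s-rs5*, took 3.64 to 28.3% of a library. A column shared between Naive and S+P C4 was left out of the scale over 30 samples.

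Technical columns were summed per mouse and subset. Genes were kept by filterByExpr with a minimum count of 10, scaled by TMM and tested by edgeR 4.0.16 (quasi-likelihood) in R 4.3.3 on S+P C5 and S+P C7, with the replicate number as a block, Benjamini-Hochberg adjustment, and a call needed both an adjusted p below 0.1 and a log2 change beyond 0.9 in size. The study's methods sort subsets from the cells of individual mice, so the same number was taken as the same mouse. The labels do not state this. Deviations from the group means correlated at 0.14 to 0.222 within numbers, each sample best with its own. The study sorted in separate independent experiments, which the labels do not assign to replicates, so mouse and experiment cannot be told apart in these correlations. DESeq2 1.42.0 was an alternative. Other alternatives were no block, other groups in the fit, other scaling, filters and thresholds, treatments of the near-identical and technical columns, and each replicate left out. The testing step was tested on simulated data. Pair differences used log2(CPM + 1). The SE of an edgeR log2 fold change was worked back from the test, as its size divided by the square root of the F statistic.

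Genes named were the sort genes, each called gene, the 10 of smallest p in each direction among symbols that are not Gm, Rik or predicted with a mean of at least 10 CPM, a log2 change beyond 0.9 in size and 1 sign in all 5 pairs, up to 4 members of each list with an unadjusted p under 0.05 or else its most abundant member, and the most abundant marker of each other cell type. Of these, 1 gene is not reported here. The members and lists were chosen with earlier results of these data known. Promoters came from RefSeq (GRCm38.p6), and gene positions from the GRCm39 annotation.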

Additional observations from a re-analysis of the deposited data

Results flagged for a closer look

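Of 130 sets of values, each a named gene in 1 of the 2 groups, 20 held a sample far from the others by Dixon's criterion. Chance meets it in about 1 in 20 sets of normally distributed values. CPM values are skewed, and some sets held a single value above 0, so that rate does not carry over here. S+P C7 replicate 3 held 5 of the 20 flagged sets, with the highest *Ighm* (8645 CPM), *Hba-a1* (10548 CPM), *Tyrobp* (506 CPM), *Xcr1* (366 CPM) and *Klra9* (92.0 CPM) of the group. S+P C7 replicate 1 held 4, with the highest *Ly6c2* (2613 CPM), *Prf1* (683 CPM), *Ier2* (592 CPM) and *Klrg1* (574 CPM). The highest *Tbc1d4* (264 CPM) and *Sostdc1* (107 CPM) of S+P C7 were in replicate 5, and the highest *Trgc2* (778 CPM) in replicate 6. In S+P C7 replicate 4, *Ada* (4.56 CPM) and *Ifi44* (0.068 CPM) were the sole values above 0 of the group. In S+P C5, replicate 1 held the highest *Gzmb* (523 CPM) and *Ada* (18.3 CPM), replicate 3 the highest *Dapl1* (404 CPM) and *Klra9* (9.30 CPM) and the lowest *Tnfrsf18* (2.32 CPM), and replicate 4 the highest *Xcr1* (4.62 CPM).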

How the results depend on the processing

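The number of called genes depended on how mice and the spread were modelled. Against 1 call with the replicate block, DESeq2 with the block called 207 genes (67 higher, 140 lower), of which 19 higher and 15 lower were among the 66 genes that the naming rule chose, and 1165 at an unadjusted p under 0.05. DESeq2 without the block called 12 and gave 487. Without the block, edgeR called 0 genes on the 2 groups (306 at an unadjusted p under 0.05, 183 higher) and 0 on all 7 groups (2503). With the block on S+P C4, C5 and C7 it called 0 (323). Counting the near-identical library as replicate 2 gave 0 calls (343), with 765 genes of 1 sign in every pair, and keeping all as deposited gave 2, *Ccl5* and *Gzmb*. Technical columns as separate samples with the block gave 39 calls and 711 genes, but libraries of 1 mouse are not independent. The cause of these differences was not tested.

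With each replicate left out in turn, calls ranged from 0 to 1 (0 without replicates 1, 4 or 5), genes at an unadjusted p under 0.05 from 183 (without replicate 4 or 6) to 1035 (without replicate 3), and genes of 1 sign from 1205 to 2493. Leaving out the 2 S+P C7 libraries with the most detected genes, chosen after seeing the data, left 1 call.

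Of these 66 genes, 60 kept their sign in every alternative. *Pdcd1* reversed to 0.0698, 0.068 and 0.0769 in the 3 fits without the block (DESeq2, edgeR on 2 and on 7 groups). *Cd8a* reversed to 0.051 with S+P C4 in the fit and ranged from -0.30 to 0.0655 over replicates left out. *Casp8* reversed to 0.136, 0.131 and 0.145 without the block and 0.106 with S+P C4, and ranged from -0.85 to 0.322. *Ighm* reversed to 3.00 and 3.01 in edgeR without the block and ranged from -1.13 to 0.0208. *Cd68* ranged from -1.19 to 0.028. *Hba-a1* reversed to -1.70 with DESeq2 and the block and to -0.339 without the filter, and ranged from -2.31 to 1.79. The median of all genes moved from -0.32 to 0.46 without the filter and to -0.04 without replicate 3. Genes with a few counts per library cannot be ranked by fold at this depth.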
